A study of Mus musculus with 2 samples.

Results

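The potassium channel genes and the hyperpolarization-activated HCN channel genes of the mouse were followed in hippocampal cultures with and without tetrodotoxin (TTX), a toxin that blocks voltage-gated sodium channels and so stops action potentials. Members were taken by name alone, as every non-control probe on the array whose gene symbol starts with Kcn, or with Hcn and a digit. This gave 149 probes for 99 genes, of 22146 gene symbols on the array. Of the 99 genes, 72 had a probe well above background on both arrays and are called measured here, 4 were above background on 1 array only, and 23 were above background on neither.

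Both cultures came from hippocampi of ICR mouse embryos at day 16.5, were kept in medium with 5.5% serum, were given 5 µM Ara-C, which kills dividing cells, and were harvested at 12 days in vitro. The control culture is described no further, and the other was in TTX for the last 2 days, with a dose that reads 2 µM in the series' design text but 2 mM in the label of that sample. A single-colour Agilent array was run for each culture, both on 1 slide. There were therefore no replicates, no difference has a replicate check or a p-value, and precision is limited by having 2 arrays. Of the non-control spots, 54.2% (control) and 52.2% (TTX) were well above background, and the signals below are normalized intensities.

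Potassium channels set the resting potential, repolarize the action potential and limit how often a neuron fires, while HCN channels carry a depolarizing current that opens on hyperpolarization. Most voltage-gated potassium channels are assemblies of 4 pore subunits, often with silent or auxiliary subunits that change their gating or their transport to the membrane. Many of these genes are strongly expressed in hippocampal pyramidal cells and interneurons, where they shape excitability in the axon, soma and dendrites.

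Among the 72 measured channel genes, 54 had a lower signal in the TTX culture, 17 a higher one and 1 the same. Lower signals were seen in nearly every branch of the family, and they were largest in single members of several branches: the silent subunit Kcnv1, the ether-à-go-go type channel Kcnh3, the inward rectifier Kcnj4, the M-current subunit Kcnq3 and the calcium-activated Kcnn2. Of the fast-spiking Kcnc branch, Kcnc1 was slightly higher and Kcnc2 and Kcnc4 were near level. The median log2 difference (TTX minus control) was -0.29, with quartiles at -0.57 and -0.01, against 0.01 over all 14016 measured genes, with quartiles at -0.23 and 0.24. Of the measured channel genes 75% were below 0, against 48.9% of all measured genes.

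At a size rule of 2-fold, 9 channel genes were lower in TTX (12.5% of those measured) and 1 was higher (1.39%), against 3.4% and 2.08% of all measured genes. At 1.5-fold there were 17 lower and 5 higher, against 8.66% and 7.62% of all genes. At 3-fold there were 4 lower and 0 higher, against 1.16% and 0.671%. The spot SD is the SD, over the repeat spots of 1 probe, of the log2 difference between the 2 arrays. It was 0.27 for the dimmest probes and 0.06 for the brightest. By this measure 41 of the 72 measured channel genes were lower by at least 2 spot SDs and 9 of the 72 were higher, against 26.4% and 27.7% of all genes. The spot SD covers the array alone and says nothing of the spread between cultures.

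**Figure D1:**
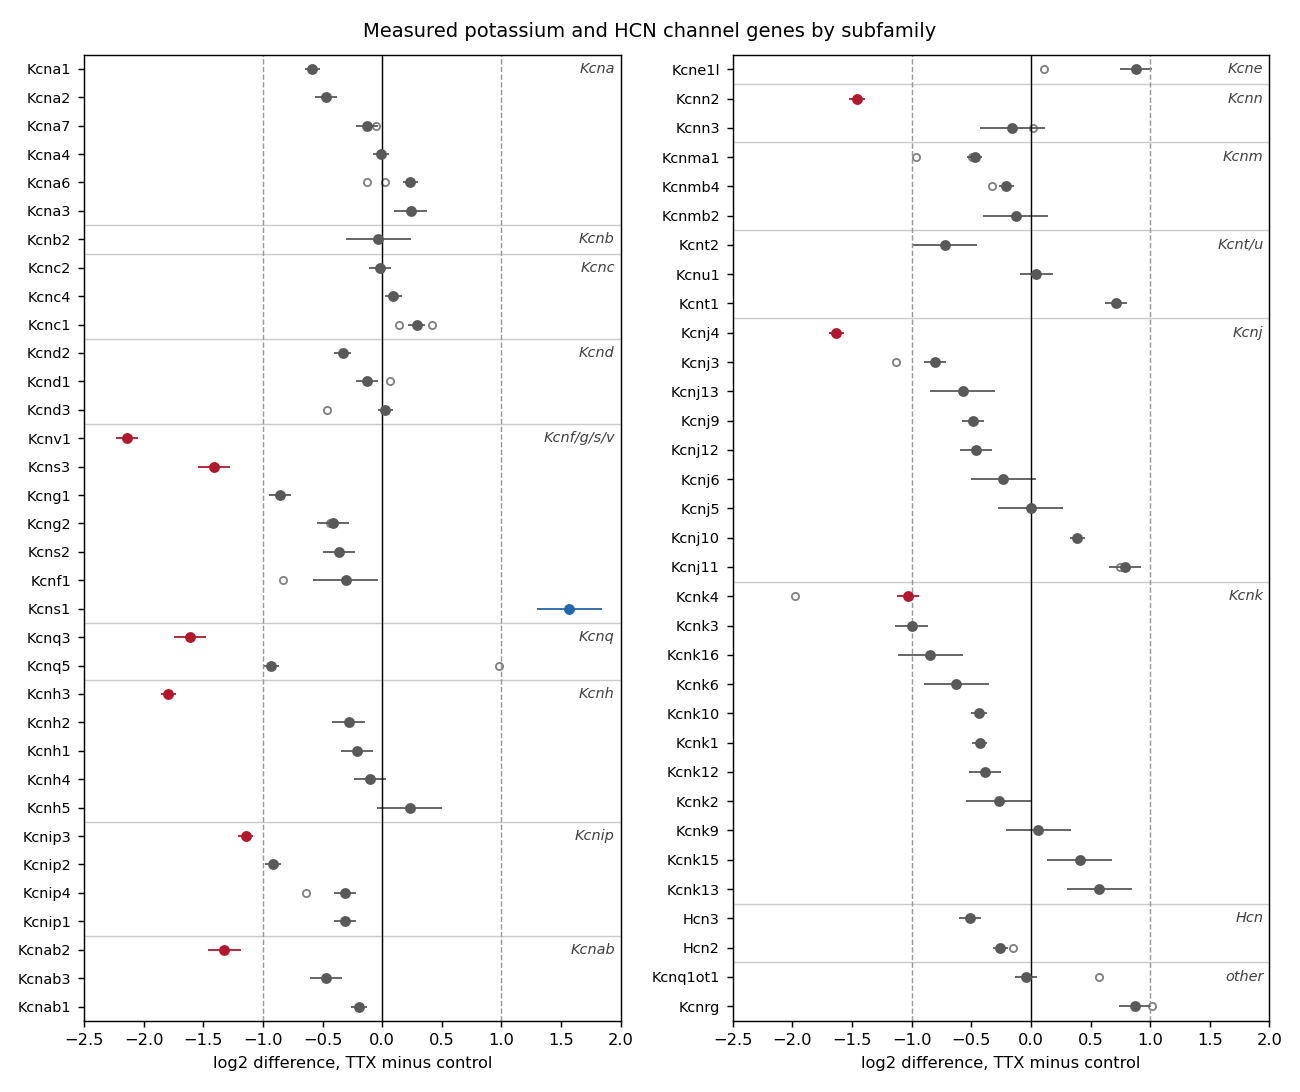
Log2 difference (TTX minus control) of 67 of the 72 measured channel genes, grouped by subfamily. Filled points are the brightest probe of each gene with its spot SD, open points are its other measured probes, dashed lines mark 2-fold, and the 9 red points are the genes at least 2-fold lower while the blue point is Kcns1.

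**Figure D2:**
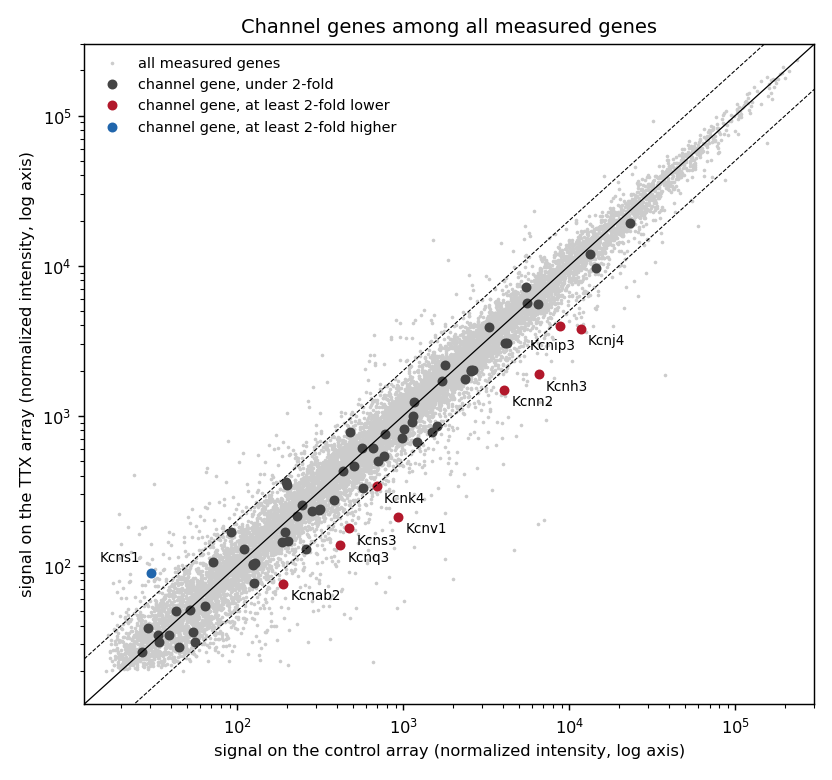
Normalized signal on the TTX array against the control array, both on log axes, for all 14016 measured genes in grey and the 72 measured channel genes in colour. Each point is 1 gene on 2 arrays, the dashed lines mark 2-fold, and the 9 red points lie below the lower one while Kcns1, in blue, lies above the upper one.

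Of the shaker-type subunits (Kcna), which form low-threshold axonal channels, 4 of 6 measured genes were below 0 and none reached 2-fold. Kcna1 had signals of 14552 in control and 9706 in TTX (log2 difference -0.58). Kcna2, its usual partner in axons, had 982 and 711 (-0.47). These were the lowest members of the branch, and Kcna1 stood just under 1.5-fold. Kcna4, the inactivating subunit of the branch, had 1724 and 1710 (-0.01), a value that changed sign with normexp background correction. Kcna7, a subunit best known from muscle, was at -0.12. Kcna3 had 109 and 129 (0.24), and Kcna6 had 3307 and 3895 (0.24) at its brightest probe while its other probes gave 0.02 and -0.13. Some of these genes are neighbours on the chromosome. Kcna1 and Kcna6 adjoin on chromosome 6, and Kcna2 and Kcna3 on chromosome 3, with opposite signs in each pair. Kcna5, which also adjoins Kcna1, was above background on control only, with a bound of at least 1.29-fold lower in TTX. That direction largely follows from the background filter, so it is not set beside the value of Kcna1. The other Kcna5 probe was above background on neither array, with 4.06 in control and 4.08 in TTX.

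Of the delayed rectifiers that the silent subunits join, Kcnb2 was dim and near level at 52.1 and 51.0 (-0.03), a sign that turned under 3 other scalings. In the Kcnc branch, whose channels close fast and allow rapid firing, Kcnc1 had 1789 and 2184 (0.29), and all 3 of its probes were above 0, from 0.14 to 0.42. Kcnc4 (0.09) and Kcnc2 (-0.02) were closer to level. The values of Kcnc4 and Kcnc2 changed sign under at least 1 scaling. Kcnd2, the main subunit of the dendritic A-type current, had 2561 and 2034 (-0.33). Kcnd1 was at -0.12 (0.07 at its dimmer probe), and Kcnd3 at 0.02, with -0.46 at its dimmer probe and a sign that depended on the scaling.

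Silent subunits (Kcnf, Kcng, Kcns and Kcnv) form no channel alone and alter the gating of Kcnb channels when they join them. This branch held both extremes, the lowest and the highest difference of all 72 genes. Kcnv1 had a signal of 937 in control and 213 in TTX, 4.40-fold lower (log2 difference -2.14). Its probe lies on chromosome 15, 44937912 to 44937971 (mm9), and only 0.514% of all measured genes had a lower difference. Kcns3 had 473 and 178, 2.66-fold lower (-1.41). Kcng1 had 1204 and 665 (-0.86), short of 2-fold. Of the remaining members, Kcng2 (-0.41 and -0.44 at its 2 probes), Kcns2 (-0.36) and Kcnf1 (-0.31) were lower by less.

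Kcns1 went the other way, with signals of 30.3 and 89.8 (1.57), and was the only channel gene measured on both arrays that was at least 2-fold higher. Its single probe was dim and sat in row 73 of the 384 rows of the array. Among all measured genes with a mean signal below 100, those at least 2-fold higher in TTX made up 5.54% of the 1300 with a spot in the upper 192 rows and 2.21% of the 1220 below them. The part of row position in the value of Kcns1 was not tested beyond centring by blocks of rows, which left it at 1.56. The value was 0.75 with normexp background correction, and the probe dropped out under the stricter filter on dim probes.

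Several Kcnq genes, though not all, encode subunits of the M-current, a slow potassium current that is suppressed by muscarinic receptors and restrains repetitive firing. Of the 4 measured members of the Kcnq branch 1 passed 2-fold. Kcnq3 had a signal of 417 in control and 137 in TTX, 3.05-fold lower (-1.61; chromosome 15, 65826897 to 65826956, mm9). Kcnq5, another neuronal subunit, had 1495 and 784 (-0.93), but a dimmer probe on the same chromosome gave 79.7 and 157 (0.98). These 2 probes of Kcnq5 are opposite in sign, and their mean is 0.02.

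In the Kcnh branch, of channels related to ether-à-go-go, Kcnh3 stood apart from the rest. Its signal was 6548 in control and 1887.5 in TTX, 3.47-fold lower (-1.79; chromosome 15, 99073172 to 99073231, mm9). Kcnh3 is a forebrain channel that acts near the resting potential. The other measured members were much closer to level: Kcnh2 was at -0.28, Kcnh1 at -0.21, Kcnh4 at -0.10 and the dim Kcnh5 at 0.23.

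Both the Kcnip and the Kcnab group of auxiliary subunits lay wholly below 0. The calcium-binding Kcnip proteins bring Kcnd channels to the membrane and slow their inactivation, and all 4 members were measured and below 0. Kcnip3, also known as a calcium-dependent repressor of transcription, had a signal of 8766 in control and 3962 in TTX, 2.21-fold lower (-1.15). Kcnip2 had 1609 and 854 (-0.91). Kcnip4 was at -0.32, and at -0.64 at its dimmer probe. Kcnip1 had 10 spots on each array and differed by -0.31 ± 0.09 (SD over 10 spots, which are not replicates). The channel subunits that these proteins bind, the Kcnd genes above, were between -0.33 and 0.02.

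The Kcnab genes encode cytosolic beta subunits of the Kcna channels, and all 3 were below 0. Kcnab2 had 189 and 75.5, 2.50-fold lower (-1.32). Kcnab3 had 383 and 276 (-0.47), and Kcnab1 had 1149 and 1003 (-0.20). The lower value of Kcnab2 shrank to -0.89 with normexp background correction, which adds an offset to every signal. Of the 5 small single-pass Kcne subunits only Kcne1l was measured, at 197 and 363 (0.88), and its other probe gave 0.11.

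Among calcium-activated channels, Kcnn2, the small-conductance channel of the afterhyperpolarization and of dendritic spines, had 4071 in control and 1484 in TTX, 2.74-fold lower. It was the most precisely measured of the 9 genes within the arrays, since its probe had 10 spots: they differed by -1.46 ± 0.06 (SD), and all lay between -1.54 and -1.36. The dim Kcnn3 had 38.7 and 34.7 (-0.16, and 0.02 at its other probe), a sign that turned under 2 scalings, and Kcnn1 and Kcnn4 were not above background. The large-conductance channel Kcnma1 had 4228 and 3052 (-0.47), with its other probes at -0.50 and -0.97. Its neuronal beta subunit Kcnmb4 was at -0.21 and the dim Kcnmb2 at -0.13, a sign that turned with scaling. The sodium-activated channels were opposite to each other, with Kcnt1 higher (478 and 784, 0.71) and Kcnt2 lower (127 and 76.9, -0.72). Kcnu1, a channel of sperm, was at 0.05.

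Inward rectifiers (Kcnj) hold the membrane near rest, and 6 of their 9 measured genes were below 0. Kcnj4 had a signal of 11708 in control and 3784 in TTX, 3.09-fold lower (-1.63). The G protein-gated subunits Kcnj3, Kcnj9 and Kcnj6 were lower by less. Kcnj3 had 577 and 330 (-0.80, and -1.13 at its dimmer probe), and Kcnj9 had 701 and 500 (-0.49). Kcnj6 differed by -0.23 ± 0.15 (SD over 10 spots) at signals of only 64.0 and 54.5. The dim Kcnj5, also a G protein-gated subunit, was level at 26.8 on both arrays. The dim Kcnj13 (-0.57) and Kcnj12 (-0.46) were also lower. The higher members were of other kinds. Kcnj11, the pore of the ATP-sensitive channel, had 201 and 347 (0.79), with 0.75 at its other probe. The sulfonylurea receptor Abcc8, which is its partner in neurons, had 2412 and 4236 (0.81, and 0.72 at its other probe).

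Kcnj10, the inward rectifier typical of astrocytes, had 5500 and 7203 (0.39). Of the 9 measured astrocyte markers 7 were above 0, with a median of 0.24. The log2 of their summed signal was 15.67 in control and 15.93 in TTX, most of it from Aldoc, although the glutamate transporter Slc1a2 was at -1.05. The part of astrocyte RNA in the value of Kcnj10 was not tested. In RNA from a whole culture, fewer cells of a type and less RNA per cell cannot be told apart. Kcnj10 lies beside Kcnj9 on chromosome 1, and these neighbours had opposite signs.

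The two-pore channels (Kcnk) carry the resting leak, and 8 of 11 measured genes were below 0. Kcnk4, a channel opened by stretch and lipids, had 691 and 338, 2.04-fold lower (-1.03). Its other probe was lower still at 116 and 29.6 (-1.98), and Kcnk4 was the only 1 of the 9 genes with more than 1 measured probe. Kcnk3, an acid-sensitive channel, had 260 and 130 (-0.999) and lay just outside the rule, as Kcnk4 lay just inside it. Kcnk10 (-0.44), Kcnk1 (-0.43) and Kcnk12 (-0.38) were lower by similar amounts, and Kcnk2 was at -0.27. Of the dim members, Kcnk16 (-0.84) and Kcnk6 (-0.63) were lower by over 1.5-fold, Kcnk15 was at 0.41 and Kcnk9 at 0.06. With normexp background correction Kcnk16 was at -0.30 and Kcnk6 at -0.26, both inside 1.5-fold, and Kcnk6 was also inside it with 75th percentile scaling (-0.46), spike-in scaling (-0.52) and no normalization (-0.47). Kcnk13 had 71.8 and 106.8 (0.57). It is a channel known from microglia, and of the 7 measured microglia markers 5 were above 0, with a median of 0.36. The log2 of their summed signal was 14.23 in control and 14.38 in TTX, nearly all of it from Itgam (18150 and 20320), while Csf1r was at -0.36 and Cx3cr1 and P2ry12 were above background on neither array. The part of microglia in that value was not tested.

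Of the HCN genes, Hcn2 had 23100 and 19349 (-0.26, and -0.15 at its other probe), and Hcn3 had 770 and 541 (-0.51). Neither reached 1.5-fold, and Hcn4, the subunit best known from the cardiac pacemaker, was not above background. Outside the branches, the regulator Kcnrg had 91.9 and 169 (0.87, and 1.01 at its other probe), and the antisense RNA Kcnq1ot1 was at -0.04, with 0.57 at a dim probe.

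The subfamilies with all measured members below 0 included Kcnip (median -0.61), Kcnab (-0.47) and the Kcnma and Kcnmb genes (-0.21). In the last of these Kcnmb2 turned above 0 under 2 scalings. The 2 measured Kcnn genes were also below 0 (median -0.81), though Kcnn3 turned above 0 under 2 scalings. The medians of Kcnj (-0.46), Kcnk (-0.43), the silent subunits (-0.41) and Kcnh (-0.21) were lower with members above and below 0. The medians of Kcnd (-0.12) and Kcna (-0.07) were nearer level. Branches were not tested against each other.

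A bound was all that could be given for the 4 genes above background on 1 array. The direction of each bound largely follows from which array that was. On the control array alone, Kcnh7 had 33.9 against 10.5, at least 1.73-fold lower in TTX, and Kcna5 had 25.4 against 16.75, at least 1.29-fold lower. Neither bound reached 2-fold, which 17.5% of all such genes did. On the TTX array alone, Kcnq1 had 81.0 against 3.88, at least 5.06-fold higher, and Kcnk7 had 40.1 against 3.70, at least 2.50-fold higher. Both passed 2-fold, as 54.2% of all genes above background on TTX alone did. The Kcnq1 probe sat in row 8, and the other Kcnq1 probe was above background on neither array, with 5.18 in control and 4.87 in TTX. These 2 probes overlap on the same strand of chromosome 7 (150612887 to 150612946 and 150612896 to 150612955, mm9). The bound for Kcnq1 thus rests on 1 probe that its overlapping probe did not bear out. The Kcnk7 probe sat in row 127. The genes above background on neither array were Hcn4, Kcna10, Kcne1, Kcne2, Kcne3, Kcne4, Kcng3, Kcng4, Kcnh6, Kcnh8, Kcnj1, Kcnj2, Kcnj8, Kcnj14, Kcnj15, Kcnj16, Kcnk5, Kcnk18, Kcnmb1, Kcnmb3, Kcnn1, Kcnn4 and Kcnv2.

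The agreement between probes limits single genes. Of the 22 channel genes with at least 2 measured probes, 14 had all of them on 1 side of 0 and 8 had probes on both sides. Over the 100 measured probes, 71 were below 0, 11 were at least 2-fold lower and 2 at least 2-fold higher. Of the 9 genes at least 2-fold lower, 8 rest on a single measured probe.

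Spot position was set beside the differences because of the row trend among dim genes given with Kcns1. The 38 channel genes with their first spot in rows 1 to 192 had a median of -0.21, with 28 below 0 and 4 at least 2-fold lower. They include Kcnn2, Kcnip1 and Kcnj6, whose probes had 10 spots each that also reached later rows. The 34 in later rows had a median of -0.40, with 26 below 0 and 5 at least 2-fold lower. The medians of all genes in these blocks were 0.02 and 0.00. Lower channel genes were thus found in both parts of the array. After the median of each block of 48 rows was taken off, 10 channel genes were at least 2-fold lower, the 9 above among them, and the median was -0.31.

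**Figure D3:**
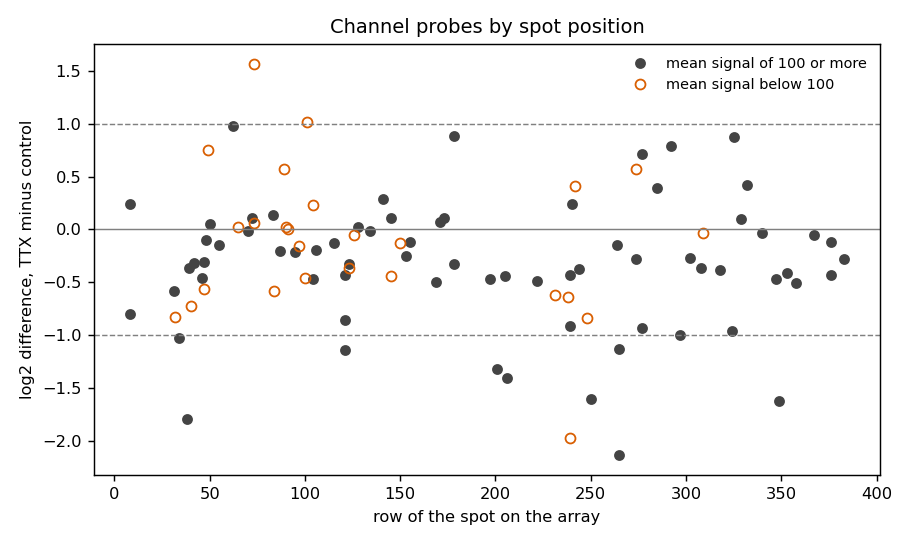
Log2 difference (TTX minus control) of the 97 measured channel probes with 1 spot, against the row of the spot on the array. Open orange points have a mean signal below 100 and dashed lines mark 2-fold; Kcns1, at 1.57 in row 73, is the highest point.

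**Figure D4:**
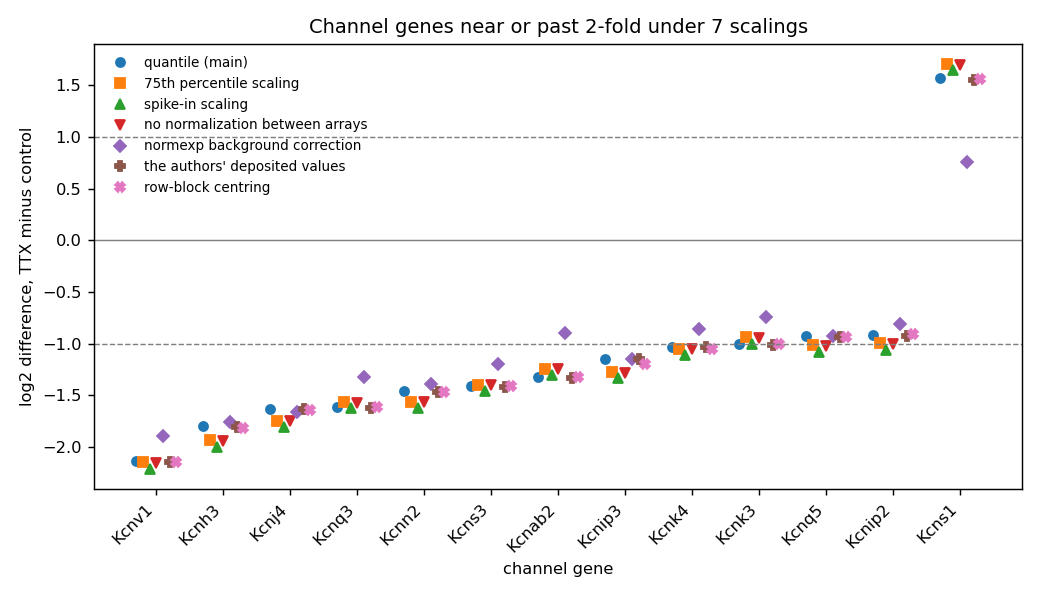
Log2 difference (TTX minus control) of the 9 channel genes at least 2-fold lower, of Kcns1 and of 3 genes close to the rule (Kcnk3, Kcnq5 and Kcnip2), each under 7 ways of scaling the 2 arrays. Dashed lines mark 2-fold; Kcnab2, Kcnk4 and Kcns1 come inside it with normexp background correction.

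Promoter sequences from 250 bases before to 50 after the start site were searched for sites of activity-regulated factors, in a RefSeq table of build GRCm38.p6 that matched 72 of the 99 genes and 5 of the 9 lower ones (Kcnab2, Kcnip3, Kcnj4, Kcnk4 and Kcns3). The full cAMP response element TGACGTCA, read on both strands, was in 0 of the 97 promoters of these genes, against 1.79% of all 32851 promoters in the table. The shorter TGACG, 1 arm of that element, which also lies within the full element, was in 19.6% of them, against 20.8% of all. Counted by gene, with a match in any promoter, it was in 26.4% of the 72 members and 23.0% of all 27025 genes of the table. The AP-1 site TGANTCA, bound by Fos and Jun proteins, was in 4.12%, against 7.81% of all, and by gene in 5.56% of the members, against 8.97% of all. A match is a run of letters and not evidence of binding, and no match says only that the letters are not in this window. Of the 5 lower genes with a promoter, 2 held TGACG and 1 the AP-1 site.

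The stretches that hold these matches are shown for the 3 lower genes, and for Kcnip4 and Kcnk2 as members with an AP-1 match that stayed within 2-fold. Each reads 5′ to 3′ on the gene's own strand (minus in all 5), ends before the start site, and has the matched letters in capitals. For Kcnab2 the capitals CGTCA are TGACG on the opposite strand, present 2 times. The stretches lie at chr4:152477649-152477784 (Kcnab2), chr15:79505344-79505468 (Kcnj4), chr2:127522150-127522276 (Kcnip3), chr5:49285675-49285801 (Kcnip4) and chr1:189344252-189344378 (Kcnk2).
Kcnab2: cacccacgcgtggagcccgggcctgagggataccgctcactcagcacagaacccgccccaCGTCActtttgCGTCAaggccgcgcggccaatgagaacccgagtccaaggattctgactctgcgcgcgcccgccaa
Kcnj4: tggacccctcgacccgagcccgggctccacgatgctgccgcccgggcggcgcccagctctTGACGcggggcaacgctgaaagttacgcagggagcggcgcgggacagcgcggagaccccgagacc
Kcnip3: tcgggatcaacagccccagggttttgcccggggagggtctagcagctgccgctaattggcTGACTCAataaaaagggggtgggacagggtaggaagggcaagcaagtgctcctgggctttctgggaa
Kcnip4: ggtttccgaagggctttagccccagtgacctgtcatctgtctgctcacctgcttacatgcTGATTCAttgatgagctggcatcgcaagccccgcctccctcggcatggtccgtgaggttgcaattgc
Kcnk2: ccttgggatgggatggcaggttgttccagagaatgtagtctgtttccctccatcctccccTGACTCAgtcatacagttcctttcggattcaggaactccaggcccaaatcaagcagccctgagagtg
Kcnip3 and Kcnk2 carry the same 7 letters, at positions -122 and -126 from the start site, while their log2 differences were -1.15 and -0.27.

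Partners of these channels outside the Kcn and Hcn names did not share the lower median. Of 32 measured genes in a list of 35, 16 were below 0 and 16 above, with a median of -0.01. At 2-fold, 9 of the 72 channel genes were lower and 1 was higher. Of the 32 partners, 4 were at least 2-fold lower and 1 at least 2-fold higher, against 3.4% and 2.08% of all measured genes. The lower ones were Kctd16, a GABA-B receptor subunit (-1.65), the anchor Akap5, which holds kinases at Kcnq channels (-1.21), Lgi1, a secreted protein that acts on Kcna channels (-1.06), and Adam23, its receptor (-1.03). Amigo1, an adhesion protein that accompanies Kcnb channels, was at -0.71. Cntn2, which clusters Kcna channels on axons, was the higher one (273 and 1144, 2.07, and 1.14 at its other probe). The Kcnd partners Dpp6 (0.00, and 1.29 at a dimmer probe) and Dpp10 (-0.02, and 0.42 at a dimmer probe) were level at their brightest probe. The Kcnip genes were not.

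All 14 neuronal markers were measured, among them Slc17a7, Gad1, Neurod6 and Prox1 of hippocampal neurons. Of these markers 9 were below 0, with a median of -0.26. At 2-fold, 2 of the 14 were lower and 1 was higher, against 3.4% and 2.08% of all measured genes. The log2 of the summed signal of the 14 markers was 17.46 in control and 17.21 in TTX. The part of neuronal RNA in the lower channel signals was not tested. Oligodendrocyte lineage markers (6 of 10 measured) had a median of 0.20, fibroblast markers (5 of 6) one of 0.16 and endothelial markers (3 of 6) one of -0.21, with Sox10, Cldn5 and Cdh5 above background on neither array.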

How the data were processed

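RNA of 1 control and 1 TTX culture was hybridized to Agilent 8x60K mouse arrays. Each spot's intensity in the deposited scanner output is linear, with background subtracted and spatial trends removed, per the file headers (Feature Extraction 10.7.1.1; 9.5.1.1 in the submitters' processing notes), with probe positions on mm9. The deposited value table holds intensity with the same median (24.9) in both columns, as quantile normalization, named in the series' design text, gives.

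Outlier spots (131 on control, 170 on TTX, none of a channel probe) were left out, none was saturated, and signals were quantile normalized, converted to log2 and averaged within a probe. Measured means that a share of 0.5 or more of the probe's spots passed the scanner's background test on each array. The brightest measured probe stood for its gene. Bounds set the bright signal against the higher of the dim signal and the lowest signal well above background (16.0 on control, 19.6 on TTX). Spot SDs came from 251 measured probes with at least 8 spots, in 5 bins of signal. All-gene counts cover symbols of RefSeq GRCm38.p6 (30848 of 55681 probes).

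All 99 genes could be named, with full values for those past 2-fold, those with only a bound, the extremes of each subfamily and a fixed set. The members and lists were chosen with earlier results of these data known. Alternatives were other scalings, normexp (limma 3.58.1, offset 50), the deposited values, other filters, probe rules and fold rules. The steps, in Python 3.11.15 and R 4.3.3, were tested on simulated data. Some members enter the counts but are not reported by name here. A planned search of protein sequences was not run.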

Additional observations from a re-analysis of the deposited data

How the results depend on the processing

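With 1 array a group no result had a test, and dim signals limit precision (spot SD 0.27 for the dimmest probes, Kcns1 among them). The count of channel genes at least 2-fold lower (9) was 10 with 75th percentile scaling, with the authors' deposited values, with row-block centring and with no filter on dim probes, 11 with no normalization, 12 with spike-in scaling and 7 with normexp, which lost Kcnab2 and Kcnk4. It moved further with the 1.5-fold rule (17), the 3-fold rule (4) and when every one of at least 2 probes had to pass (1, Kcnk4), by construction. The count at least 2-fold higher (1, Kcns1) was 0 with normexp, with the stricter filter, with the 3-fold rule and with the rule on every probe, 3 with no filter and 5 at 1.5-fold. The median (-0.29) lay between -0.38 (spike-in scaling) and -0.23 (normexp), except that it was -0.12 with no filter, where genes below background count as level by construction. None of the 10 genes past 2-fold changed sign under the alternatives run, while 8 others did so between scalings and Kcnq5 did with the mean over probes (0.02). Of the values of single genes 524 moved by less than 1 spot SD and 111 by more, and of the subfamily medians 124 and 29; the cause was not tested.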
